A study of Mus musculus with 3 samples.

Results

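Metabotropic glutamate receptors are G protein-coupled receptors for glutamate, and 6 of their genes, Grm2, Grm3, Grm4, Grm5, Grm7 and Grm8, were followed here out of 32285 genes in the files. They were taken by symbol and compared between types of brain neuron that had been labelled from the lumbar spinal cord. Nuclei were typed by other genes, so no member's own level chose a nucleus. As background, the family falls into 3 groups. Group I receptors, here Grm5, couple to Gq and phospholipase C, release calcium from internal stores and sit mainly at the edge of the postsynaptic density. Group II (Grm2 and Grm3) and group III (Grm4, Grm7 and Grm8) couple to Gi/o and lower cyclic AMP, and many of them act on presynaptic terminals, where they reduce transmitter release.

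Single-nucleus RNA sequencing had been done on 3 libraries of sorted brain nuclei from uninjured C57BL/6 mice, titled as biological replicates of 1 group. The neurons had been labelled backwards from the lumbar cord and were cut out of brain slices under fluorescence. The labelling agent and the number of mice behind each library were not given in the sources used here. There was no treated group, so each comparison below is between neuron types within the same libraries. The p-values weigh a difference between types against how much such differences varied over these 3 libraries. For each gene that variation was estimated with information borrowed from all genes tested, so it is not the gene's own spread alone. What is common to a library was taken out by the fit.

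The deposited libraries held 2710, 11094 and 3713 barcodes in replicates 1, 2 and 3, and the limits below left out most of those of replicate 2. Nuclei in which 1000 or more genes were detected and no more than 5% of UMIs (unique molecular identifiers, 1 per captured transcript) were mitochondrial numbered 2679, 2769 and 3579 in replicates 1, 2 and 3, at median depths of 8270.0, 19493 and 14388 UMIs. They were passed through 4 gates in order, each in CPM, the gene's UMIs scaled to the total of the nucleus, and with at least 2 UMIs. Tox of at least 300 gave 4126 cortical nuclei. The sum of Ttc6, Chst9 and Rreb1 of at least 150 gave 332 red nucleus nuclei. Sim1 of at least 150, or Ros1 plus Rfx2 of at least 150, gave 149 hypothalamic nuclei. Meis1 plus Meis2 of at least 200 gave 2782 hindbrain nuclei, and 1638 nuclei passed no gate.

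Markers that the gates did not use followed the labels in part. The cortical markers Slc17a7, Fezf2 and Crym were at 9.06% to 21.8% of their cortical level in the other gated types. Nuclei of no gate carried more cortical RNA. The 6 cortical layer 5 markers summed to 606.7 CPM in cortical and 306.6 CPM in no-gate nuclei. They summed to 83.5 CPM in red nucleus, 80.4 in hypothalamic and 104.7 in hindbrain nuclei. Nnat averaged 995 CPM and the orexin gene Hcrt 899 CPM in hypothalamic nuclei, and Hcrt still averaged 56.1 to 76.8 CPM in the other types. Pou4f1 averaged 17.6 CPM in red nucleus nuclei and at most 1.26 CPM in the other types, with 2.43 CPM in nuclei of no gate. Lhx4 averaged 25.4 CPM and Hoxd3 16.9 CPM in hindbrain nuclei, against at most 6.57 and 2.40 CPM in the other types and 14.1 and 7.32 CPM in nuclei of no gate. Whole marker lists separated these types less. The 7 hindbrain markers summed to 356 CPM in hindbrain, 227 in red nucleus, 204 in hypothalamic and 196 in no-gate nuclei. Among them, Glra1 averaged 102 CPM in red nucleus and 94.4 CPM in hypothalamic nuclei. The 5 red nucleus markers summed to 168 CPM in red nucleus, 138 in hypothalamic, 133 in hindbrain and 127 in no-gate nuclei. In all, 1777 nuclei met more than 1 gate and were typed by the first, 1677 of them meeting both the cortical and the hindbrain gate, and 365 hindbrain nuclei (13.1%) carried cortical markers. Of the barcodes kept, 3, 2 and 1 were shared by the library pairs 1 and 2, 1 and 3, and 2 and 3. The astrocyte markers Aqp4 and Gja1 averaged at most 0.681 CPM and 0.250 CPM in any type. The sum of the 7 astrocyte markers ranged from 2.75 to 4.02 CPM over cortical libraries, 4.77 to 12.5 over red nucleus, 1.80 to 8.17 over hypothalamic and 2.88 to 3.94 over hindbrain libraries.

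The 6 genes differ widely in length, which matters for nuclear RNA because much of it is unspliced. In GRCm38, Grm8 covered chr6:27275119-28135178 on the minus strand, or 860.1 kb with 9.90 kb of exon. Grm7 covered chr6:110645581-111567230 on the plus strand (922 kb) and Grm5 chr7:87584168-88134907 on the plus strand (551 kb). Grm3 covered chr5:9485541-9725170 (239.6 kb), Grm4 chr17:27422387-27521403 (99.0 kb) and Grm2 chr9:106643095-106656082 (13.0 kb), all 3 on the minus strand. Grm2 overlapped the antisense gene Gm28111 and Grm7 the antisense gene Gm20387. Whether counting used strand is not given in the sources used here, so reads of those pairs may not have been told apart.

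Promoter windows of RefSeq (GRCm38.p6) were found for Grm2, Grm3, Grm7 and Grm8. Those of Grm3, Grm7 and Grm8 are shown because these 3 genes were higher in cortical than in red nucleus nuclei. Each runs up to 250 bases before the most upstream listed start site, leaving out bases of any annotated exon. They lie at chr5:9725353-9725602 on the minus strand for Grm3, chr6:110645262-110645511 on the plus strand for Grm7 and chr6:28135179-28135396 on the minus strand for Grm8. Capitals mark a GC box, GGGCGG, searched on both strands.
Grm3: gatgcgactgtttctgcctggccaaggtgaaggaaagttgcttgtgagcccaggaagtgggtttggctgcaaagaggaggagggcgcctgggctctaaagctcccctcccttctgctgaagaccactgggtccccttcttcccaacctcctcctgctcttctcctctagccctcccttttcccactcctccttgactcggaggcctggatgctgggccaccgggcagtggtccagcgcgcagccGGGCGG
Grm7: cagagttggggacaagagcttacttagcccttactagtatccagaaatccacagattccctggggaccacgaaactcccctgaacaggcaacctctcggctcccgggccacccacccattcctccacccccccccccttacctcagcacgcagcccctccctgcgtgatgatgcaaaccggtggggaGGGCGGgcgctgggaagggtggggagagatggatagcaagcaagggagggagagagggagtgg
Grm8: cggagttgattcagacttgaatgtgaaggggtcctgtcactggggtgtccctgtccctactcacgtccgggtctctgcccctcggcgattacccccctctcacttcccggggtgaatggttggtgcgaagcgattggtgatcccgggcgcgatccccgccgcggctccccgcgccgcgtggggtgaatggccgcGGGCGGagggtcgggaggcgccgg
Each of the 3 windows held 1 GC box, and the Grm2 window held 3. None of the 4 held a cyclic AMP response element (TGACGTCA) or a TATA box (TATAAA). Among 32817 windows of 250 bases, 32.7% held a GC box, 1.55% the response element and 12.4% the TATA box, so these windows shared common letters and no rare element of those searched.

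Grm3, Grm5, Grm7 and Grm8 differed among the neuron types, and each of these had its highest mean in cortical nuclei. With scaling by library totals alone, however, Grm8 was level between cortical and hypothalamic nuclei (0.00 on the log2 scale) and Grm3 between cortical and hindbrain nuclei (0.03). UMIs were summed per library and type, which gave 12 sums of 367083 to 45768766 UMIs, and levels are given as CPM after TMM scaling (trimmed mean of M-values, which sets the typical gene equal between sums). edgeR's quasi-likelihood F test of all 4 types, with the library as a block, called Grm3 (adjusted p = 7.79e-09), Grm5 (4.65e-10), Grm7 (5.00e-12) and Grm8 (3.51e-10). Grm4 was not called (adjusted p = 0.0789), and Grm2 was below the filter on low counts and was not tested. Of 16176 genes tested, 60.9% were called, so a call by itself was common.

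**Figure D1:**
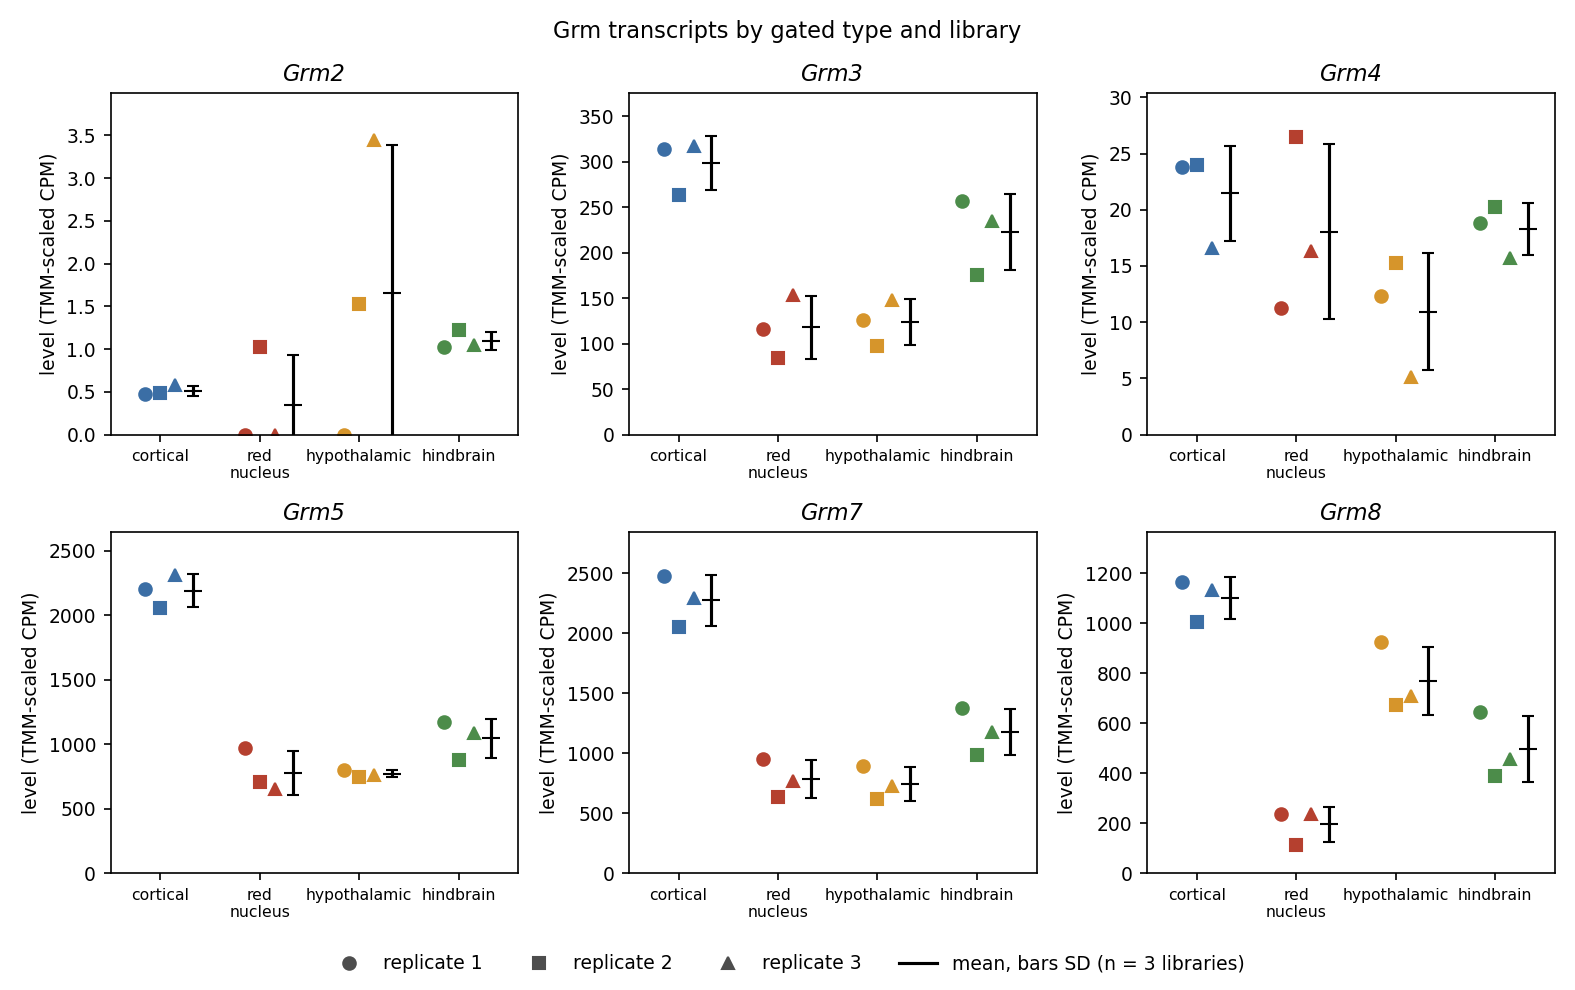
Level of each member (y axis, TMM-scaled CPM, a separate scale for each gene) in the 4 gated types (x axis), with 1 point per library and the mean with SD over 3 libraries. Grm5, Grm7 and Grm8 were highest in the cortical nuclei of every library, and Grm8 was lowest in red nucleus nuclei, at 115 to 238 CPM.

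Grm5, the group I member, was at 2201, 2057 and 2312 CPM in the cortical nuclei of replicates 1, 2 and 3. It was at 971, 707 and 655 CPM in red nucleus nuclei, 802, 748 and 762 CPM in hypothalamic nuclei and 1170.2, 878 and 1091 CPM in hindbrain nuclei. Every cortical value lay above every value of the other types, while the ranges of red nucleus, hypothalamic and hindbrain nuclei met or overlapped between neighbours in the order of means. The means were 2189.6 ± 128 CPM (SD, n = 3) in cortical, 1046 ± 151 in hindbrain, 778 ± 169 in red nucleus and 771 ± 27.9 in hypothalamic nuclei.

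Grm3 is a group II receptor that neurons and astrocytes both make in the brain. Its level was 315, 264 and 317 CPM in cortical nuclei and 257, 176 and 235 CPM in hindbrain nuclei of replicates 1, 2 and 3. In red nucleus nuclei it was 116, 84.2 and 153 CPM, and in hypothalamic nuclei 125, 97.9 and 148 CPM. Cortical values lay above all hindbrain values, hindbrain values above those of the remaining types, and the red nucleus and hypothalamic ranges overlapped. Of the astrocyte markers given above, Aqp4 and Gja1 were near 0 in every type. The sum of all 7 averaged 8.32 CPM in red nucleus, 5.14 in hypothalamic, 3.25 in hindbrain and 3.20 in cortical nuclei. Which cells the Grm3 transcripts came from was not tested.

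Grm2, the other group II member, was close to the limit of the data. It had 41 UMIs in all cortical nuclei, 2 in red nucleus, 3 in hypothalamic and 42 in hindbrain nuclei. By library it was at 0.473, 0.481 and 0.574 CPM in cortical and 1.02, 1.22 and 1.04 CPM in hindbrain nuclei, ranges that did not overlap. Replicates 1 and 3 of the red nucleus nuclei and replicate 1 of the hypothalamic nuclei had no Grm2 UMI, which allows up to 2.30, 1.79 and 8.17 CPM before TMM scaling. No fold change is given for Grm2 in types with so few UMIs.

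Among group III members, Grm7 encodes a receptor of low glutamate affinity placed in the active zone of presynaptic terminals. It was at 2477, 2051 and 2295 CPM in cortical nuclei and 1373, 989 and 1179.6 CPM in hindbrain nuclei of replicates 1, 2 and 3. Red nucleus nuclei had 949, 639 and 769.7 CPM and hypothalamic nuclei 893, 616 and 726 CPM. As for Grm5, every cortical value exceeded every value of the other types. Hindbrain values lay above all red nucleus and hypothalamic values, which overlapped.

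Grm8, a presynaptic receptor of higher glutamate affinity, had the largest difference between types. Its level was 1166, 1004 and 1131 CPM in cortical nuclei and 922, 671 and 709 CPM in hypothalamic nuclei. In hindbrain nuclei it was 644, 387 and 458 CPM, and in red nucleus nuclei 236, 115 and 238 CPM. No neighbouring ranges in this order overlapped: cortical (1100.5 ± 85.0, SD, n = 3), hypothalamic (768 ± 135), hindbrain (496 ± 132) and red nucleus (196 ± 70.6). The hypothalamic place in the order rests on the scaling, since without TMM the cortical and hypothalamic levels of Grm8 did not differ (log2 fold change 0.00, adjusted p = 0.987).

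Grm4, the remaining group III member, was low in every type. It was at 23.8, 24.0 and 16.6 CPM in cortical, 18.9, 20.3 and 15.7 CPM in hindbrain, 11.3, 26.5 and 16.4 CPM in red nucleus and 12.3, 15.3 and 5.16 CPM in hypothalamic nuclei. All neighbouring ranges overlapped.

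Before TMM scaling, nuclei that passed no gate averaged 1023 ± 110 CPM of Grm5, 1354 ± 115 of Grm7, 493 ± 40.6 of Grm8 and 189 ± 36.5 of Grm3 (SD, n = 3). The nuclei just inside the Tox gate (682, within a factor of 1.5 above the threshold) had 764 CPM of Grm8, 1478 of Grm5 and 1672 of Grm7. The 207 just outside it had 731, 1372 and 1567 CPM. At the Meis1 plus Meis2 gate, 253 nuclei just inside and 137 just outside had 549.5 and 616 CPM of Grm8 and 903 and 1119 CPM of Grm5. The red nucleus gate had 57 and 31 such nuclei, with 157 and 79.1 CPM of Grm3 and 315 and 352 CPM of Grm8. At Sim1, 9 and 4 nuclei had 1447 and 741 CPM of Grm8, and at Ros1 plus Rfx2, 10 and 4 nuclei had 647 and 2524 CPM of Grm5. Levels just inside and just outside thus differed in either direction, and no test was made at these gates.

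The pairs of types were then compared, calling a gene at an adjusted p under 0.05 and a log2 fold change of at least 1 in size. Cortical against red nucleus nuclei gave 4 of the 5 tested members higher in cortical nuclei and none lower; 8.48% of all genes were called higher in this comparison, 13.2% lower and 21.7% in either direction. The largest difference was that of Grm8, at a log2 fold change of 2.53 (SE 0.14, adjusted p = 9.28e-11). Grm7 followed at 1.55 (SE 0.08, adjusted p = 1.48e-11), Grm5 at 1.51 (SE 0.10, adjusted p = 1.13e-09) and Grm3 at 1.36 (SE 0.10, adjusted p = 6.19e-09). Grm4 differed by 0.18 (SE 0.19, adjusted p = 0.469). The median over the 5 was 1.51, against -0.05 over all genes tested. All 4 calls were kept under all 16 alternatives, including scaling by library totals alone and leaving out nuclei with cortical markers. Cortical nuclei were also deeper than red nucleus nuclei, with median UMIs by library of 12640 to 26866 against 9388 to 20499, and the calls were kept with every nucleus thinned to 3000 UMIs.

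**Figure D2:**
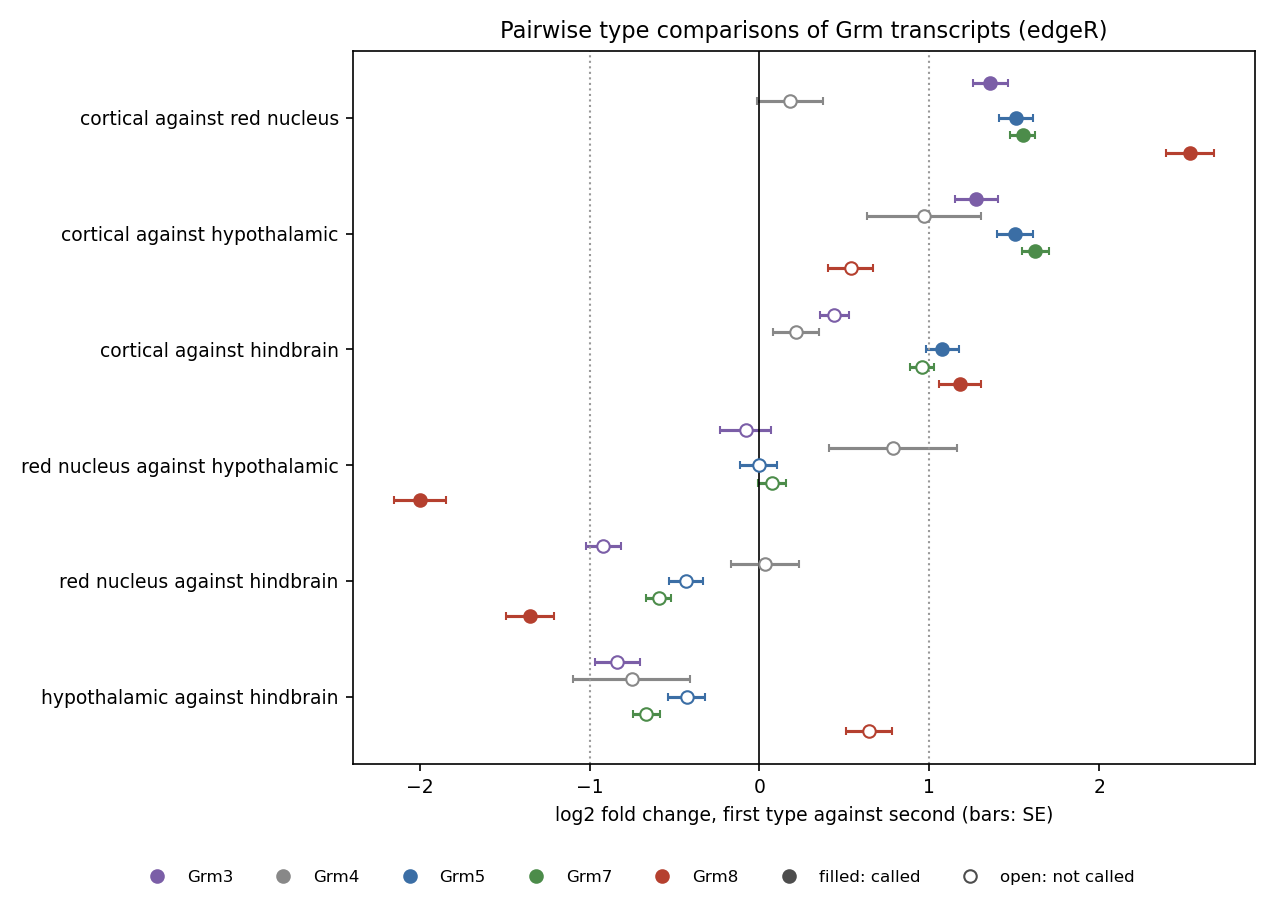
Log2 fold change (x axis, bars SE) of each tested member in the 6 comparisons of types (y axis), from edgeR's quasi-likelihood fit of 12 sums; filled points were called and dotted lines mark a log2 fold change of 1 in size. Grm8 has the largest difference in cortical against red nucleus nuclei (2.53) and is the only member called in the comparisons of red nucleus with hypothalamic (-2.00) and with hindbrain nuclei (-1.35).

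Against hypothalamic nuclei, 3 of 5 members were higher in cortical nuclei, where 10.3% of all genes were called higher, 11.7% lower and 22.0% in either direction. These were Grm7 at a log2 fold change of 1.62 (SE 0.08, adjusted p = 2.95e-11), Grm5 at 1.50 (SE 0.11, adjusted p = 3.80e-09) and Grm3 at 1.28 (SE 0.13, adjusted p = 3.49e-07). Grm8 differed by only 0.54 (SE 0.13, adjusted p = 0.00432) and Grm4 by 0.97 (SE 0.34, adjusted p = 0.0315), both short of the size required. Scaling by library totals alone moved the median of all genes to -0.52 in this comparison; relative to zero, Grm7 then stayed called at 1.09 while Grm5 (0.97) and Grm3 (0.74) fell short of the size.

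Cortical against hindbrain nuclei called 2 of 5 members higher, where 8.40% of all genes were called higher, 13.0% lower and 21.4% in either direction. Grm8 differed by 1.18 (SE 0.12, adjusted p = 2.51e-07) and Grm5 by 1.08 (SE 0.10, adjusted p = 3.98e-08). Grm7, at 0.96 (SE 0.07, adjusted p = 3.45e-09), and Grm3, at 0.44 (SE 0.09, adjusted p = 0.000276), passed the p but not the size, and Grm4 differed by 0.22 (SE 0.13, adjusted p = 0.183). With library totals alone the median of all genes was -0.46, Grm8 was 0.77 and Grm5 0.66, and neither was called, although both stayed higher in cortical nuclei at adjusted p-values of 2.44e-05 and 2.00e-06. Thinning to 3000 UMIs also took Grm5 to 0.92.

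Grm8 was the 1 member called in red nucleus nuclei against hypothalamic and against hindbrain nuclei. In red nucleus against hypothalamic nuclei it was lower by a log2 fold change of -2.00 (SE 0.15, adjusted p = 6.35e-08), the 1 call among 5 members, where 3.22% of all genes were called lower, 3.55% higher and 6.77% in either direction. Grm3, Grm5 and Grm7 differed there by -0.08, -0.01 and 0.08 (SE 0.15, 0.11 and 0.08), and Grm4 by 0.79 (SE 0.38, adjusted p = 0.211). With the hypothalamic nuclei of the Ros1 plus Rfx2 arm alone, the Grm8 difference was -0.01 and was not called. In red nucleus against hindbrain nuclei Grm8 was again the 1 member called, at -1.35 (SE 0.14, adjusted p = 3.18e-06), where 1.87% of all genes were called lower, 2.28% higher and 4.15% in either direction. Grm3 (-0.92, adjusted p = 9.38e-06), Grm7 (-0.59, adjusted p = 2.80e-05) and Grm5 (-0.43, adjusted p = 0.00762) were lower in red nucleus nuclei by less than the size required. Grm3 was also called without replicate 3 (-1.11), with nuclei of more than 1 gate left out (-1.02), with doubled gates (-1.05) and with nuclei carrying cortical markers left out (-1.09).

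In hypothalamic against hindbrain nuclei, where 4.12% of all genes were called (2.10% higher and 2.02% lower), no member was called by edgeR, although all 5 tested had an unadjusted p under 0.05. Grm8 was higher in hypothalamic nuclei by 0.65 (SE 0.14, adjusted p = 0.00473). Grm3 (-0.84, adjusted p = 0.000339), Grm7 (-0.67, adjusted p = 1.72e-05) and Grm5 (-0.43, adjusted p = 0.0163) were lower. Grm4, at -0.75, had an unadjusted p of 0.0438 and an adjusted p of 0.230. DESeq2 called no member either.

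Set against the cortical level, the members also differed from the cortical markers. In red nucleus nuclei Slc17a7, Fezf2 and Crym averaged 9.06% to 11.6% of their cortical level, while Grm8 was at 17.8%, Grm7 at 34.6%, Grm5 at 35.5% and Grm3 at 39.4%. In hindbrain nuclei the markers were at 13.5% to 21.8%, and Grm8 at 45.1%, Grm5 at 47.8%, Grm7 at 51.9% and Grm3 at 74.5%. The part of cortical RNA in these members' levels was not tested.

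How many nuclei carried a transcript was compared after thinning each nucleus to 3000 UMIs, which left out 49 cortical, 5 red nucleus, 3 hypothalamic and 67 hindbrain nuclei. Grm8 was found in 86.4% ± 2.32 of cortical, 60.4% ± 11.6 of hypothalamic, 52.5% ± 2.97 of hindbrain and 21.1% ± 5.35 of red nucleus nuclei (SD, n = 3). Before thinning the shares were 97.4%, 76.3%, 72.9% and 48.0%. Red nucleus nuclei ranged from 15.1% to 25.4% by library, below every library of the other types. As a measure of free RNA, Hcrt had a UMI in 17.9% of the same thinned red nucleus nuclei and in 16.8% of cortical and 21.1% of hindbrain nuclei. By this share alone, Grm8 in red nucleus nuclei was near Hcrt, a transcript these cells should lack. The share of thinned red nucleus nuclei with 3 or more UMIs was 7.55% for Grm8 and 0.659% for Hcrt. Nuclei with a UMI had 2.32 of Grm8 and 1.58 of Hcrt on average. The part of free RNA in the Grm8 share was not tested.

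The Grm8 transcripts that red nucleus nuclei did have were unevenly spread. The 10% of thinned red nucleus nuclei with most Grm8 held 75.7% ± 7.08 of its UMIs, compared with 24.9% ± 0.295 in cortical, 37.7% ± 1.76 in hypothalamic and 42.2% ± 1.82 in hindbrain nuclei. A red nucleus nucleus with any Grm8 UMI had 2.32 ± 0.548 of them, and a cortical one 2.84 ± 0.147. Hypothalamic nuclei with Grm8 had the most, at 4.41 ± 0.354 UMIs, although fewer of them carried it than cortical nuclei. That concentration also moves with the share of nuclei that have a UMI, which was not corrected for.

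**Figure D3:**
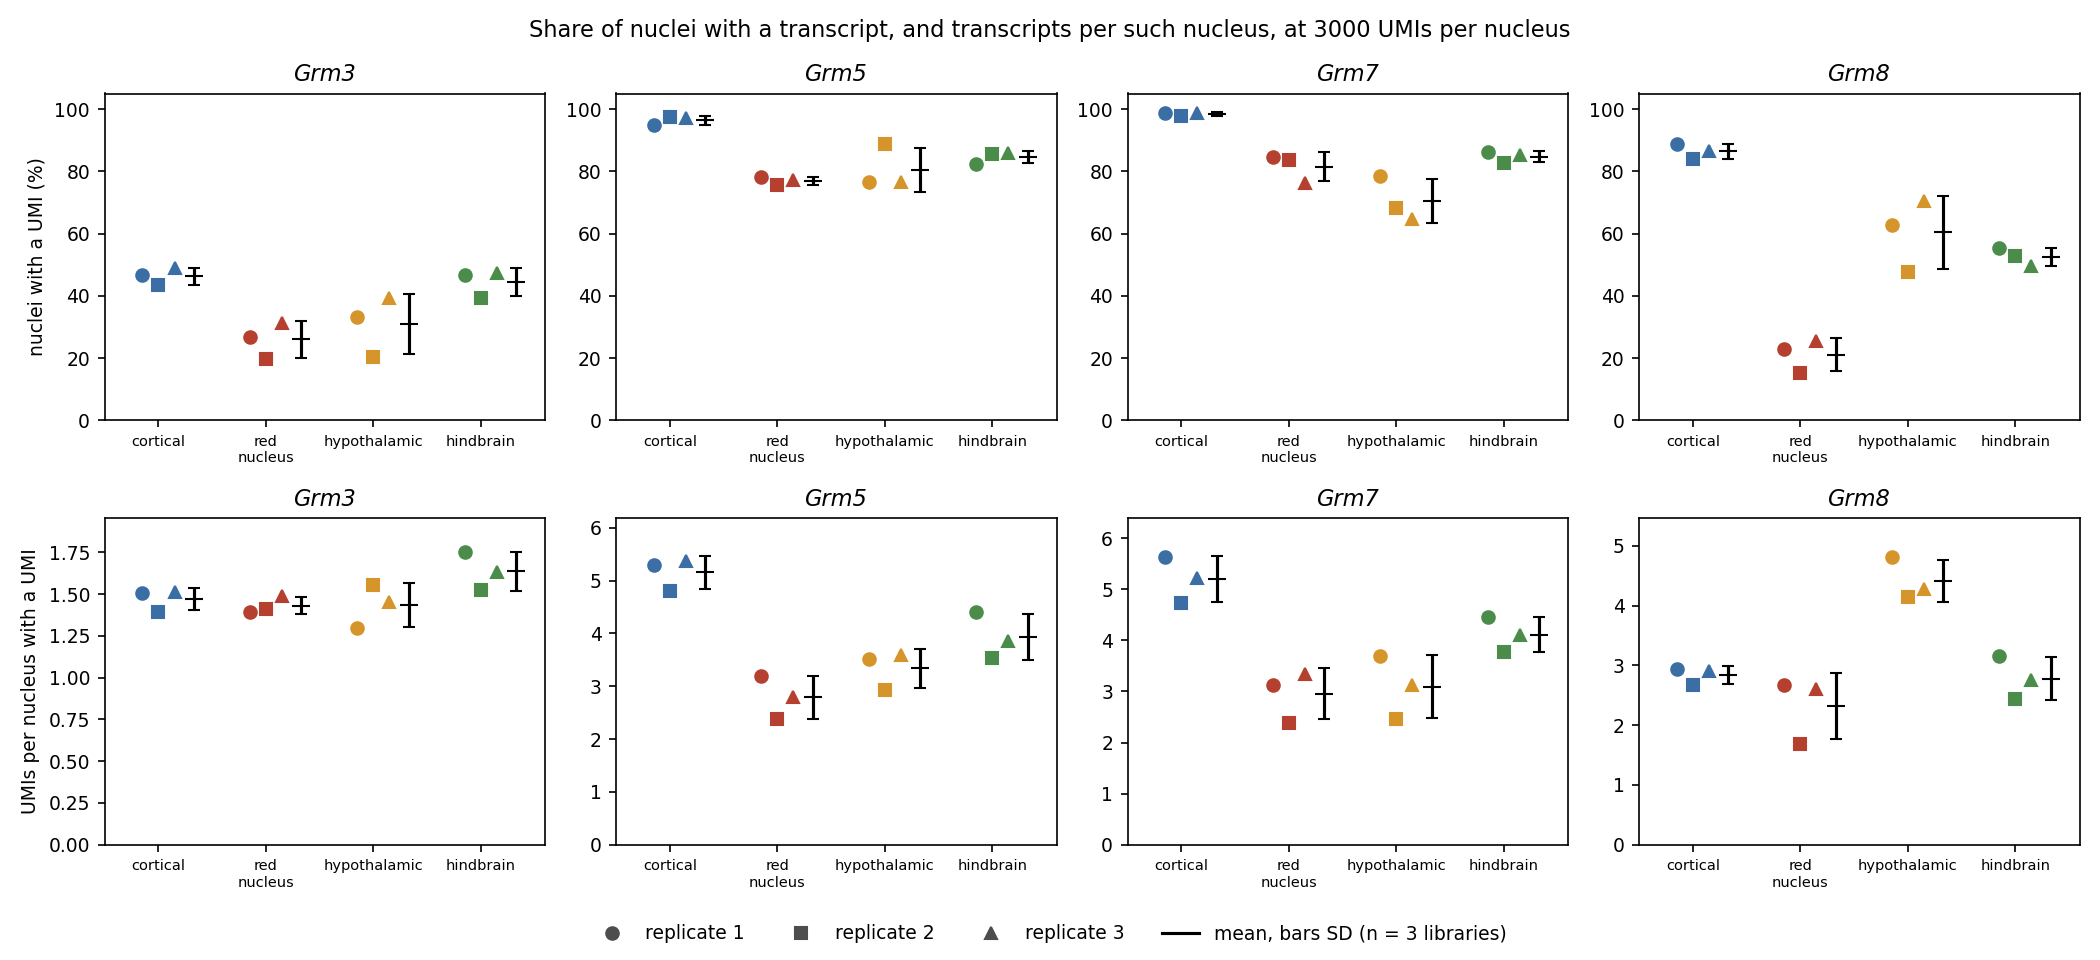
Share of nuclei with a UMI (top row, percent) and UMIs per nucleus with a UMI (bottom row) for 4 members in the 4 types (x axis), at 3000 UMIs per nucleus, with 1 point per library and the mean with SD over 3 libraries. Grm8 has a share of 86.4% in cortical and 21.1% in red nucleus nuclei, and most UMIs per positive nucleus in hypothalamic nuclei, at 4.41.

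Grm7 and Grm5 were found in most nuclei of every type. Thinned, Grm7 was found in 98.4% ± 0.508 of cortical, 84.7% ± 1.90 of hindbrain, 81.5% ± 4.56 of red nucleus and 70.4% ± 7.14 of hypothalamic nuclei. For Grm5 the shares were 96.4% ± 1.42, 84.6% ± 1.83, 76.9% ± 1.25 and 80.5% ± 7.02 in the same order. Grm3 was found in 46.2% ± 2.71 of cortical and 44.5% ± 4.39 of hindbrain nuclei, and in 26.0% ± 5.84 of red nucleus and 31.0% ± 9.60 of hypothalamic nuclei. Grm4 shares were between 4.23% and 5.02% in all 4 types. A thinned nucleus carried UMIs of 3.32 ± 0.0415 of the 6 members on average if cortical, 2.72 ± 0.0581 if hindbrain, 2.47 ± 0.135 if hypothalamic and 2.10 ± 0.0704 if red nucleus. At least 4 of the members were seen together in 41.2% of cortical and 4.79% of red nucleus nuclei.

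The hypothalamic gate joins nuclei of different neurons, and Grm8 separated its arms. The Sim1 arm held 33, 22 and 37 nuclei in replicates 1, 2 and 3, and the Ros1 plus Rfx2 arm 19, 22 and 15; 1 nucleus of both arms was left out. Markers not used by the gate differed between them: thinned, the oxytocin gene Oxt was found in 19.0% of Sim1-arm nuclei and in 0% of the other arm, and Hcrt in 20.6% and 65.0%. Grm8 was at 1764, 1304 and 1069.5 CPM in the Sim1 arm and 177, 230.5 and 258 CPM in the Ros1 plus Rfx2 arm. Every library of the Sim1 arm was above every library of the other. The log2 fold change was 2.60 (SE 0.23, adjusted p = 6.29e-07, edgeR), the 1 call among 4 tested members, where 5.35% of 4546 genes were called higher, 3.85% lower and 9.19% in either direction.

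Grm7 ran the other way, at 846, 546 and 645 CPM in the Sim1 arm and 1278, 911 and 1305 CPM in the Ros1 plus Rfx2 arm. The ranges did not overlap, and the log2 fold change of -0.78 (SE 0.17, adjusted p = 0.00549) was short of the size required. Grm5 (0.02, adjusted p = 0.974) and Grm3 (-0.07, adjusted p = 0.922) differed little. Across single thinned hypothalamic nuclei the rank correlation of Grm7 with Grm8 was -0.47 to -0.32 over the 3 libraries. It was also negative across red nucleus nuclei, at -0.23 to -0.10. Across cortical nuclei it was 0.07 to 0.12 and across hindbrain nuclei 0.20 to 0.24. These values are a description of nuclei that share a library.

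The place of the hypothalamic type in the Grm8 order therefore depends on the arm. Taking the Sim1 arm alone, an alternative added once the data had been seen, cortical and hypothalamic nuclei differed by -0.04 (adjusted p = 0.890) and hypothalamic exceeded hindbrain nuclei by 1.22 (adjusted p = 2.32e-05). Taking the Ros1 plus Rfx2 arm alone, cortical exceeded hypothalamic nuclei by 2.52 (adjusted p = 1.06e-08), red nucleus and hypothalamic nuclei differed by -0.01 (adjusted p = 0.996), and hypothalamic nuclei were below hindbrain nuclei by -1.35 (adjusted p = 0.000270).

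**Figure D4:**
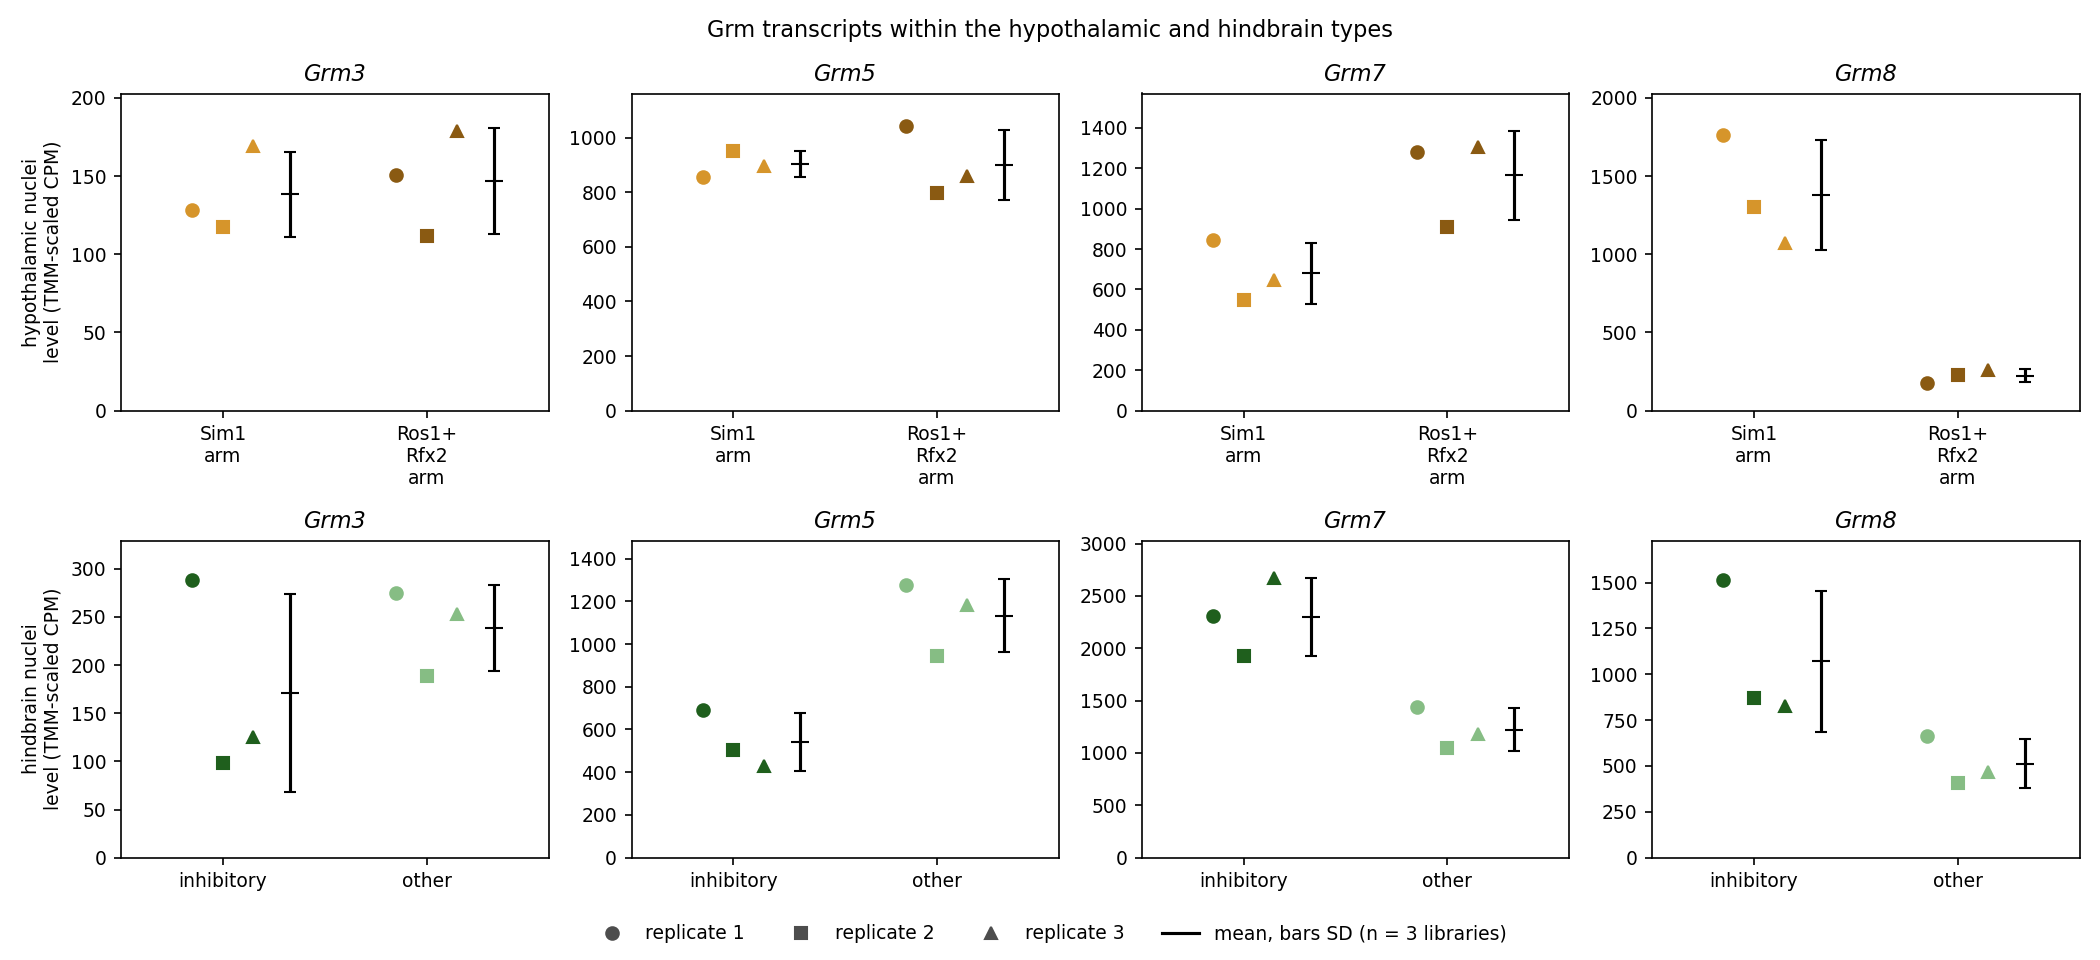
Level (y axis, TMM-scaled CPM) of 4 members in the arms of the hypothalamic gate (top row) and in inhibitory and other hindbrain nuclei (bottom row), with 1 point per library and the mean with SD over 3 libraries. Grm8 averaged 1379 CPM in the Sim1 arm and 222 CPM in the Ros1 plus Rfx2 arm, and 1070.4 CPM in inhibitory against 512 CPM in other hindbrain nuclei.

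Hindbrain nuclei were split by their sum of the inhibitory genes Gad1, Gad2, Slc32a1 and Slc6a5, at 150 CPM or more. This gave 26, 8 and 40 inhibitory nuclei in replicates 1, 2 and 3, so the sums are small, and the fit was run after this was known. Grm8 was at 1515, 870.3 and 826 CPM in inhibitory and 662, 407 and 468 CPM in other hindbrain nuclei. Grm5 was at 691, 502 and 428 CPM in inhibitory and 1276, 943 and 1181 CPM in other nuclei. Neither gene's ranges overlapped, and they moved in opposite directions: Grm8 higher by a log2 fold change of 1.03 (SE 0.14, adjusted p = 6.93e-06) and Grm5 lower by -1.10 (SE 0.15, adjusted p = 8.11e-06). These were 2 calls among 5 tested members, where 1.47% of 14438 genes were called (0.672% higher and 0.797% lower).

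Both calls are near the size required and rest on few nuclei. Without the replicate block the Grm8 value was 1.06 with an adjusted p of 0.0966, without replicate 1 it was 0.92, and without replicate 3 Grm5 was -0.95. Grm7 was at 2308, 1922 and 2667 CPM in inhibitory and 1444, 1043 and 1182 CPM in other nuclei, without overlap, at a log2 fold change of 0.91 (SE 0.14, adjusted p = 4.61e-05) that was short of the size. Grm3 (-0.58, adjusted p = 0.121) and Grm4 (-0.25, adjusted p = 0.960) were not called. Grm2 had no UMI in the inhibitory nuclei.

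Other genes of the receptors' pathways were counted from fixed lists. For these counts the background in cortical against red nucleus, hypothalamic and hindbrain nuclei was 8.48%, 10.3% and 8.40% of all genes called higher and 13.2%, 11.7% and 13.0% called lower, at median log2 fold changes of -0.05, 0.01 and -0.05. Of the Gq pathway of group I receptors, 11 of 12 genes were tested, and in cortical against red nucleus, hypothalamic and hindbrain nuclei 5, 5 and 4 were called higher and 1, 1 and 2 lower. Their median log2 fold changes were 0.59, 1.14 and 0.42, above those of all genes. Plcb1, the phospholipase C isoform that group I receptors use in forebrain neurons, averaged 2922 ± 252 CPM in cortical, 418 ± 146 in red nucleus, 233 ± 38.3 in hypothalamic and 615 ± 78.5 in hindbrain nuclei. It was called in all 3 cortical comparisons, at 2.84, 3.60 and 2.25, and was lower in hypothalamic than in hindbrain nuclei by -1.35 (adjusted p = 6.08e-05). Itpr1, the calcium release channel of the internal store, averaged 602 ± 49.6 CPM in cortical nuclei and 64.4 to 97.0 CPM in the other types, with log2 fold changes of 2.65 to 3.22. Its relative Itpr2 went the other way, at 4.39 ± 2.53 CPM in cortical and 42.9 ± 3.97 in red nucleus nuclei (-3.48, adjusted p = 1.03e-09).

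Scaffold and partner genes were mixed, with 12 of 13 found in the files and all 12 tested. In the same 3 comparisons 3, 3 and 2 were called higher in cortical nuclei and 2, 2 and 2 lower, at median log2 fold changes of 0.16, 0.15 and 0.00. The count against hindbrain nuclei, 4 of 12, compares with 21.4% of all genes called in either direction. Homer1, which links Grm5 to the internal store, averaged 385 ± 94.4 CPM in cortical nuclei, 70.9 ± 17.7 in red nucleus, 73.5 ± 26.7 in hypothalamic and 83.9 ± 12.9 in hindbrain nuclei. It was called at 2.45, 2.43 and 2.18. Elfn1, a synaptic partner that recruits Grm7 across the cleft, was lowest in cortical nuclei, at 2.64 ± 0.466 CPM against 23.2 ± 3.01 in red nucleus (-3.15, adjusted p = 9.21e-10) and 15.8 ± 1.15 in hindbrain nuclei (-2.62, adjusted p = 3.80e-10). Grip1, a PDZ scaffold, averaged 190.0 ± 37.5 CPM in cortical and 1114 ± 189 in red nucleus nuclei (-2.56, adjusted p = 8.33e-13). Shank2 was higher in hypothalamic (235 ± 15.8 CPM) than in red nucleus (83.6 ± 7.34) and hindbrain nuclei (92.5 ± 6.26), at log2 fold changes of 1.36 over hindbrain and -1.50 for red nucleus against hypothalamic nuclei; neither call was kept with the Ros1 plus Rfx2 arm alone.

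The Gi/o pathway of group II and III receptors had 15 of 16 genes tested, and 5, 7 and 5 were called higher in cortical than in red nucleus, hypothalamic and hindbrain nuclei, with 0, 1 and 0 lower. The medians were 0.82, 0.63 and 0.56, against -0.05, 0.01 and -0.05 over all genes. Adcy1, a calcium-stimulated adenylyl cyclase that Gi/o can inhibit, averaged 260.4 ± 11.97 CPM in cortical nuclei, 73.7 ± 1.89 in red nucleus, 50.2 ± 5.98 in hypothalamic and 67.1 ± 7.62 in hindbrain nuclei (1.82, 2.36 and 1.96). Kcnj6, a subunit of the potassium channel opened by Gi/o, averaged 367 ± 20.6 CPM in cortical nuclei and 150.1 ± 23.2, 92.3 ± 14.8 and 101 ± 8.38 in the other types. Its call against red nucleus nuclei (1.29) was not kept with library totals alone (0.95). Adcy2 averaged 531 ± 43.0 CPM in cortical and 89.3 ± 23.4 in hypothalamic nuclei (2.60, adjusted p = 6.80e-12), where it was also below the hindbrain level of 314 ± 39.7 (-1.84, adjusted p = 1.16e-08).

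Receptor kinases, arrestins and RGS proteins, which end receptor signals, gave 12 of 13 genes tested, with 4, 2 and 2 higher and 3, 2 and 2 lower in cortical nuclei in the same comparisons, where 21.7%, 22.0% and 21.4% of all genes were called in either direction. The medians of the list were 0.51, -0.11 and 0.17. Rgs4 averaged 27.1 ± 3.33 CPM in cortical nuclei and 6.05 to 8.86 CPM elsewhere, and the receptor kinase Grk3 averaged 87.2 ± 11.5 CPM in cortical nuclei and 27.7 to 31.3 CPM elsewhere. Arrb2, an arrestin, was lower in cortical nuclei, at 9.39 ± 1.24 CPM against 26.0 ± 0.887, 35.4 ± 8.45 and 30.6 ± 1.50 CPM. For genes of glutamate loading and uptake, 8 of 9 were tested and 3 were higher and 2 lower in each cortical comparison, against the same shares of all genes, at medians of 0.16, 0.31 and 0.45. Slc17a7 and Slc17a6, the vesicle transporters typical of cortical and of subcortical glutamate neurons, moved in opposite directions. Slc1a2 averaged 160.0 ± 7.66 CPM in cortical and 19.4 to 26.2 CPM in the other types.

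Among 7006 tested genes with a mean of at least 20 CPM, the 3 whose levels followed each member most closely over the 12 sums were found by Pearson correlation of log2 values. They included Unc79 (0.984) and Scai for Grm5, and Ralyl (0.985) and Cemip2 for Grm7. For Grm8 they were Syndig1 (0.991), Cadm1 and B230209E15Rik, and for Grm3 Neo1 (0.957), 4930590L20Rik and Kcnq5. The sums share their libraries and differ in depth by type, so these are descriptions. Of 1049 tested genes of at least 200 kb, 21.5%, 28.6% and 21.7% were called higher and 22.3%, 20.3% and 19.3% lower in cortical than in red nucleus, hypothalamic and hindbrain nuclei. Their median log2 fold changes were 0.20, 0.39 and 0.29, against -0.05, 0.01 and -0.05 over all genes. Grm3, Grm5, Grm7 and Grm8 are all of that length, and the part of gene length in their differences was not tested.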

How the data were processed

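Single-nucleus UMI counts were deposited by the authors as whole-number counts per gene and barcode for 3 libraries, made with Cell Ranger, version 6.1.1 per the file headers and 7.0.1 with build mm10 per the submitters' processing notes. Which version made them was not settled, and intron counting, strand and barcode selection were not given in the sources used here. With exons alone counted, the long members would be measured lower.

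Nuclei were kept and gated as described in the results. Counts were summed per library and type (at least 20 nuclei per sum) and fitted with edgeR 4.0.16 (TMM, filterByExpr, glmQLFTest), with the library as a block and Benjamini-Hochberg adjustment over all genes tested. The common coefficient of variation was 0.0866 with 6 residual degrees of freedom in the fit of the 12 sums. The fits of the arms and of the inhibitory split had 2 residual degrees of freedom each. Each gene's spread was drawn toward that of genes of similar level, and edgeR's SEs were computed from the fold change and the F statistic. The 4 sums of a library come from 1 sorted sample; over 18 pairs of sums, deviations of the same library correlated at 0.0662 to 0.612 (median 0.282). Arms needed 10 nuclei per sum; the inhibitory split had 8 in replicate 2 and was fitted with a minimum of 5, added after the data were seen. Gate genes were left out of the tests. TMM factors averaged 0.801 in cortical sums and 1.02 to 1.16 in the others.

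Members, gates and lists were chosen with earlier results of these data known. All members are named; of each list, up to 4 called genes per comparison, those of largest fold change at 10 CPM or more; and for each member the 3 closest genes, where some are not reported here. Gene positions are from GENCODE on GRCm38, to which 99.6% of gene IDs matched. Scrublet (Scanpy 1.11.5, expected rate 6%) called 15, 59 and 52 doublets, left in except in an alternative. The code was tested on simulated data. Alternatives were DESeq2 1.42.0 and its size factors, no filter, no block, leaving out each replicate, doublets, nuclei of more than 1 gate, of astrocyte UMIs or of cortical markers, doubled gates, thinning, the arms alone and library totals alone. Intervals cover counting error only.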

Additional observations from a re-analysis of the deposited data

How the results depend on the processing

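Over the 44 results for members and 623 alternatives, 575 kept their direction and call, 10 lost the call, 17 gained it and 21 changed sign. Grm2 was too low to be tested, and the hypothalamic and inhibitory sums held few nuclei. The alternatives on cortical markers, library totals alone, single arms and all of the inhibitory split were chosen after seeing the data. Without the replicate block, the number of members called changed in the inhibitory split alone (1 of 5 for 2).

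Members called fell from 3 to 1 in cortical against hypothalamic and from 2 to 0 in cortical against hindbrain nuclei with library totals alone, and to 1 in the latter with thinning. They were 5, 0 and 1 for cortical against hypothalamic, red nucleus against hypothalamic and hypothalamic against hindbrain nuclei with the Ros1 plus Rfx2 arm alone, and 2 for the last with the Sim1 arm alone. For red nucleus against hindbrain nuclei they were 2 with nuclei of more than 1 gate or with cortical markers left out and with doubled gates, and 1 to 2 without 1 replicate. In the inhibitory split they were 1 without the filter, and 1 to 3 without 1 replicate. Leaving out 1 replicate gave 3 to 4, 2 to 3 and 4 members called in cortical against hypothalamic, hindbrain and red nucleus nuclei.

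Grm4 in cortical against red nucleus nuclei turned to -0.0035 with nuclei of more than 1 gate left out, -0.042 with doubled gates and -0.16 with library totals alone, and ranged from -0.034 to 0.48 without 1 replicate. With library totals alone Grm4 was -0.20 in cortical against hindbrain and -0.038 in red nucleus against hindbrain nuclei, where it was also -0.23 thinned and -0.27 to 0.25 without 1 replicate. Grm5 in red nucleus against hypothalamic nuclei was 0.025 with no filter, 0.012 with no replicate block, 0.010 with doublets removed, 0.012 with the Sim1 arm alone and 0.048 with the Ros1 plus Rfx2 arm alone, and -0.12 to 0.097 without 1 replicate. Grm7 there was -0.11 with library totals alone and -0.30 with the Ros1 plus Rfx2 arm alone. Grm8 was -0.037 in cortical against hypothalamic nuclei with the Sim1 arm alone and -1.35 in hypothalamic against hindbrain nuclei with the other arm. Rgs8 with the Ros1 plus Rfx2 arm alone was 0.38, 0.12 and -0.41 in cortical against hypothalamic, red nucleus against hypothalamic and hypothalamic against hindbrain nuclei. Grm5 between the arms was -0.0020 with library totals alone and -0.087 to 0.16 without 1 replicate. Beyond the construction of each alternative, the cause was not tested. For 78 pathway results, 1169 of 1248 alternatives kept the call, 76 lost it and 3 changed sign.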
